A study of Arabidopsis thaliana with 9 samples.

Results

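The chloroplast and the mitochondrion of Arabidopsis thaliana each keep a small genome, and the transcripts of both were followed here in rosettes of an overexpressing line, a mutant line and the wild type. The members were all loci of the deposited count table whose identifier begins with ATCG (chloroplast genome) or ATMG (mitochondrial genome). This gave 80 chloroplast and 64 mitochondrial loci, 144 of the 22155 loci in the table. The groups were PP2-A5oe (an overexpressing line by its label), pp2-a5 (a mutant line by its label) and Col-0 (labelled WT), with 3 biological replicates each, all at an age of 3 weeks and all under the treatment called Control. PP2-A5 (AT1G65390) belongs to the phloem protein 2 family of lectins. The labels give neither the promoter that drives the overexpression nor the kind of mutation, and the counts of PP2-A5 itself are not analysed here, so the genotypes were not checked on the targeted gene. The source is given as rosette, whereas the protocol speaks of seedlings.

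Chloroplast genes are read by a plastid-encoded RNA polymerase, which needs nuclear-encoded sigma factors to find its promoters, and by a nuclear-encoded polymerase of the phage type. Many of them lie in operons, and their long primary transcripts are cut, edited and stabilised by proteins imported from the cytosol. Chloroplast transcripts encode core subunits of the photosynthetic complexes and parts of the plastid's own ribosomes, while mitochondrial transcripts encode core subunits of the respiratory chain. In both organelles a poly(A) tail is short and marks RNA for decay, and these libraries were made from RNA enriched on oligo(dT) beads. The levels below are therefore those of the organelle RNA that passed this enrichment, not of the whole organelle RNA.

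Neither the count table nor the annotation at hand pairs ATCG and ATMG identifiers with gene names. Annotation notes on nuclear genes named a few of the 80 chloroplast loci, and 6 of the 64 mitochondrial loci could be matched to an annotated gene in the same way. Names and roles are given below only for loci matched in this way. The chloroplast loci described by name are ndhJ (ATCG00420) and ndhK (ATCG00430), which encode subunits of the NDH complex of cyclic electron flow, rpl20 (ATCG00660), which encodes a ribosomal protein, clpP (ATCG00670), which encodes the proteolytic subunit of the Clp protease, and cemA (ATCG00530), which encodes a protein of the inner envelope. On the TAIR10.1 chloroplast sequence, ndhJ lies at 48677 to 49153 and ndhK beside it at 49257 to 49934, both on the minus strand. On the same strand, rpl20 lies at 68512 to 68865 and clpP in 3 coding parts between 69910 and 71882. The plus strand holds cemA, at 60741 to 61430.

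Libraries held 5408847 to 6196722 counts, and levels are given in CPM, a locus's counts scaled to the same library total. Chloroplast loci took 2.49% to 2.78% of all counts and mitochondrial loci 0.0741% to 0.178%. At this depth the 95% exact (Clopper-Pearson) limits of the highest chloroplast share were 2.76% and 2.79%, which cover counting error only. Of the green leaf markers used to check the tissue, 4 of 6 were in the table, and their summed level was 27681 to 30879 CPM in PP2-A5oe plants, 28208 to 29061 CPM in pp2-a5 and 33873 to 37297 CPM in Col-0. None of these was at 0. All 7 root hair and root epidermis markers were in the table, at summed levels of 26.8 to 35.1 CPM in PP2-A5oe plants, 12.1 to 16.3 CPM in pp2-a5 and 9.06 to 9.68 CPM in Col-0. Both marker lists thus differed between the groups without overlap between either line and Col-0, and their part in the results below was not tested. In whole tissue, fewer cells of a type and less RNA per cell cannot be told apart.

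Col-0 replicate 3 and PP2-A5oe replicate 2 stood apart from the other libraries of their groups in the organelle transcripts. Col-0 replicate 3 lay at least 2-fold above both other replicates of its group at 11 of the 77 chloroplast loci and 4 of the 23 mitochondrial loci with enough counts for a test. PP2-A5oe replicate 2 did so at 7 chloroplast and 2 mitochondrial loci, and each of the other 7 libraries at none. Among nuclear loci, 0.143% to 0.351% lay that far above in any 1 library. The loci were partly the same in both libraries. The 5 shared chloroplast loci made up 45.5% of those of Col-0 replicate 3 and 71.4% of those of PP2-A5oe replicate 2, and the 2 shared mitochondrial loci made up 50% and 100%.

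ATCG00490 had the widest gap in Col-0 replicate 3. It measured 43.2, 221 and 28.3 CPM in PP2-A5oe plants, 15.7, 30.2 and 42.3 CPM in pp2-a5, and 17.6, 15.2 and 372 CPM in Col-0, in the order of the replicate numbers. ATCG00020 measured 253, 1259 and 142 CPM in PP2-A5oe plants, 131, 185 and 247 CPM in pp2-a5, and 119, 117 and 1745 CPM in Col-0. Against the mean of the other libraries of its group, Col-0 replicate 3 was 22.7-fold higher at ATCG00490 and 14.8-fold higher at ATCG00020, and PP2-A5oe replicate 2 was 6.197-fold and 6.38-fold higher. The 5 shared chloroplast loci summed to 385, 1785 and 246 CPM in PP2-A5oe plants, 224, 303 and 409 CPM in pp2-a5, and 230, 209 and 2512 CPM in Col-0. The remaining chloroplast loci went the other way in Col-0 replicate 3, at 24649 CPM against 27160.0 and 27564 CPM in Col-0 replicates 1 and 2, so that the chloroplast sum as a whole did not single this library out. What set these libraries apart was not tested.

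**Figure D1:**
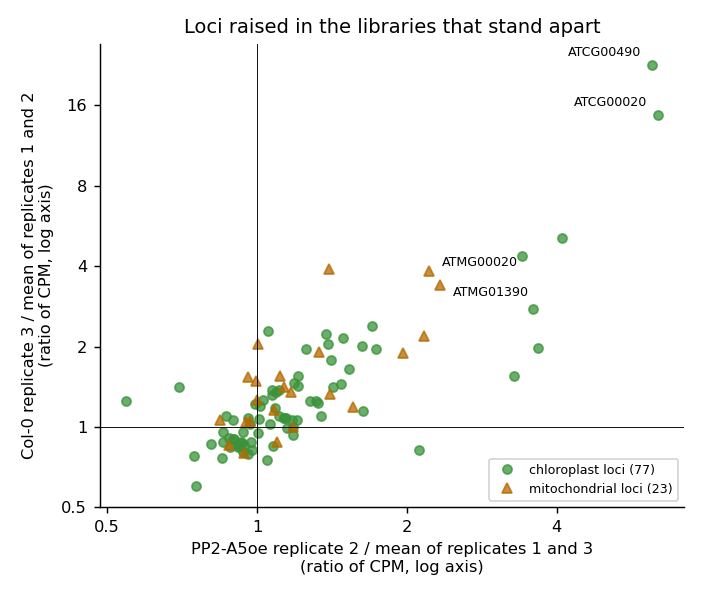
Each point is a tested chloroplast (circle) or mitochondrial (triangle) locus, with the CPM ratio of PP2-A5oe replicate 2 to the mean of its group's other replicates on the x axis and that of Col-0 replicate 3 on the y axis, both on log scales. ATCG00490 and ATCG00020 lie at the top right, raised 6.197-fold and 6.38-fold in PP2-A5oe replicate 2 and 22.7-fold and 14.8-fold in Col-0 replicate 3, while most loci lie near a ratio of 1.

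The summed chloroplast level was 25386, 27192 and 27575 CPM in PP2-A5oe plants, 25502, 25342 and 24902 CPM in pp2-a5, and 27390.4, 27773 and 27161 CPM in Col-0. The 3 pp2-a5 libraries all lay below the 3 Col-0 libraries, while PP2-A5oe overlapped with both. The sum averaged 25249 ± 311 CPM in pp2-a5 and 27441 ± 309 CPM in Col-0 (SD, n = 3 each; difference -7.99%, log2 difference -0.12, exact two-sided permutation p = 0.1, adjusted p = 0.6 over 6 comparisons of sums). In PP2-A5oe it averaged 26717 ± 1169 CPM (SD, n = 3), a log2 difference from Col-0 of -0.04 (exact permutation p = 0.5). PP2-A5oe differed from pp2-a5 by 0.08 (log2, exact permutation p = 0.2). With 3 libraries against 3, the exact permutation test cannot go below p = 0.1, so none of these differences could pass.

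**Figure D2:**
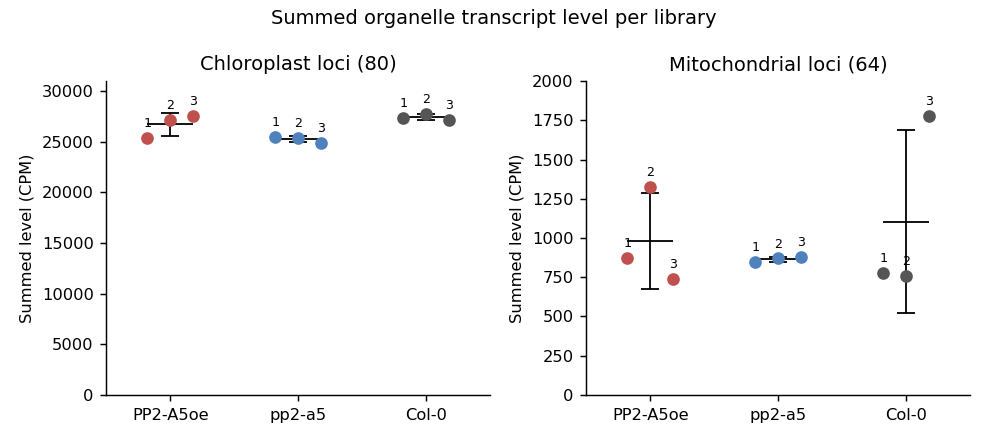
Summed level of the 80 chloroplast loci (left) and the 64 mitochondrial loci (right) in CPM, with 1 point per library labelled by its replicate number, a horizontal bar at the group mean and whiskers of 1 SD. The pp2-a5 chloroplast sums lie between 24902 and 25502 CPM, all below the Col-0 libraries, and the mitochondrial sums of PP2-A5oe replicate 2 and Col-0 replicate 3 reach 1324 and 1779 CPM.

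A large part of the sum came from 1 locus. ATCG00480 was the most abundant chloroplast locus in every library and took 18.4% to 28.5% of the chloroplast counts. It measured 7124, 6818 and 7411 CPM in PP2-A5oe plants, 7031, 6889 and 7085 CPM in pp2-a5, and 6078, 6390.4 and 5001 CPM in Col-0, so that every library of both lines lay above every Col-0 library. It rose in PP2-A5oe (log2 fold change 0.29 ± 0.06 SE, adjusted p = 0.0012) and in pp2-a5 (0.27 ± 0.06 SE, adjusted p = 0.0033) by edgeR's quasi-likelihood test. Without Col-0 replicate 3, the lowest library, and PP2-A5oe replicate 2, the pp2-a5 value was 0.17 ± 0.05 SE (adjusted p = 0.018). The other 79 chloroplast loci summed to 18262, 20374 and 20164 CPM in PP2-A5oe plants, 18471, 18453 and 17817 CPM in pp2-a5, and 21313, 21383 and 22160 CPM in Col-0. Both lines lay below Col-0 without overlap in this sum. The log2 differences were -0.14 in PP2-A5oe and -0.24 in pp2-a5, each with the smallest p that the exact permutation test can give (0.1). ATCG00480 was higher in both lines than in Col-0, so leaving it out lowers their sums against Col-0 by construction. In PP2-A5oe the sum over all loci overlapped with Col-0.

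The loci were then tested one by one, in a model fitted over all 13975 loci of the table with enough counts and with Benjamini-Hochberg adjustment over all of them. Of the 80 chloroplast loci, 77 were tested, with mean levels from 1.52 to 6647 CPM and a median of 42.2 CPM. The other 3 had 3 to 60 counts in all 9 libraries together. Since 5 loci held 52.8% to 59.8% of the chloroplast counts, the locus counts below and the sums above weigh the genome very differently.

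In pp2-a5, 22 of the 77 chloroplast loci fell and 4 rose at an adjusted p under 0.05. Of all tested loci, 20.5% were called in this comparison, against 33.8% of the chloroplast loci. The background share of lower calls was 6.4%, against 28.6% among the chloroplast loci, and that of higher calls was 14.1%, against 5.19%. The lower calls had log2 fold changes from -1.44 to -0.22 and the higher ones from 0.26 to 0.41. The largest fall was at a locus with few counts, with a mean of 2.30 CPM over all libraries. In 23 of the 26 called loci the 3 pp2-a5 and 3 Col-0 libraries did not overlap. The calls rest on the same libraries, and the share over all called loci was not counted, so this is no added support. The median over the 77 loci was -0.26 on the log2 scale, against 0.03 over all tested loci, and 63 of the 77 had a negative value. Without Col-0 replicate 3 and PP2-A5oe replicate 2, 23 fell and 4 rose, where 1012 and 2012 of all 14143 tested loci did. Of these 27 chloroplast calls, 20 were among the 26. Fewer chloroplast loci then had a negative value, though still most of them. Over all tested loci, 68.8% of the calls in pp2-a5 were higher ones, a share that was 59.3% with TMM scaling and 49.7% with upper-quartile scaling. Under these scalings 27 and 29 chloroplast loci fell in pp2-a5 and 4 and 3 rose. Over all 13975 tested loci the lower calls also grew, from 894 to 1182 and 1553, and the higher calls went from 1970 to 1719 and 1536.

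In PP2-A5oe, 14 of the 77 chloroplast loci fell and 6 rose relative to Col-0. The 26% called were close to the 25.5% called among all tested loci, so the number of calls does not set these loci apart from the rest of the table. The lower calls were 18.2% of the chloroplast loci, against a background of 11.7%, and the higher calls 7.79%, against 13.8%. Their log2 fold changes ran from -1.36 to -0.20 for the lower calls and from 0.18 to 0.38 for the higher ones. The largest fall was again at a locus with few counts, with a mean of 2.25 CPM. The libraries of the groups did not overlap at 18 of the 20 called loci, which again is no added support for the calls. The median was -0.20, against -0.03 over all tested loci, and 63 of the 77 values were negative here too. Without Col-0 replicate 3 and PP2-A5oe replicate 2, 17 fell and 6 rose, where 1353 and 1752 of all 14143 tested loci did. Of these 23 chloroplast calls, 17 were among the 20. Fewer chloroplast loci then had a negative value here too, though still most of them. Without PP2-A5oe replicate 1 the count of calls was 12, where 2909 of all 14151 tested loci were called.

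No chloroplast locus passed the test between PP2-A5oe and pp2-a5, where 13.3% of all tested loci did (5.7% higher and 7.6% lower in PP2-A5oe). At an unadjusted p under 0.05 there were 4, and DESeq2 also called none, whereas edgeR with TMM scaling called 1. Without pp2-a5 replicate 1 there were 5, all higher in PP2-A5oe. The median of the 77 loci was 0.09, against -0.06 over all tested loci. Over all tested loci, 42.8% of the calls in this comparison were higher ones, against 56.9% with TMM and 57.6% with RLE scaling. The comparisons of both lines with Col-0 share the Col-0 libraries. The counts of both lines are therefore not independent of each other.

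**Figure D3:**
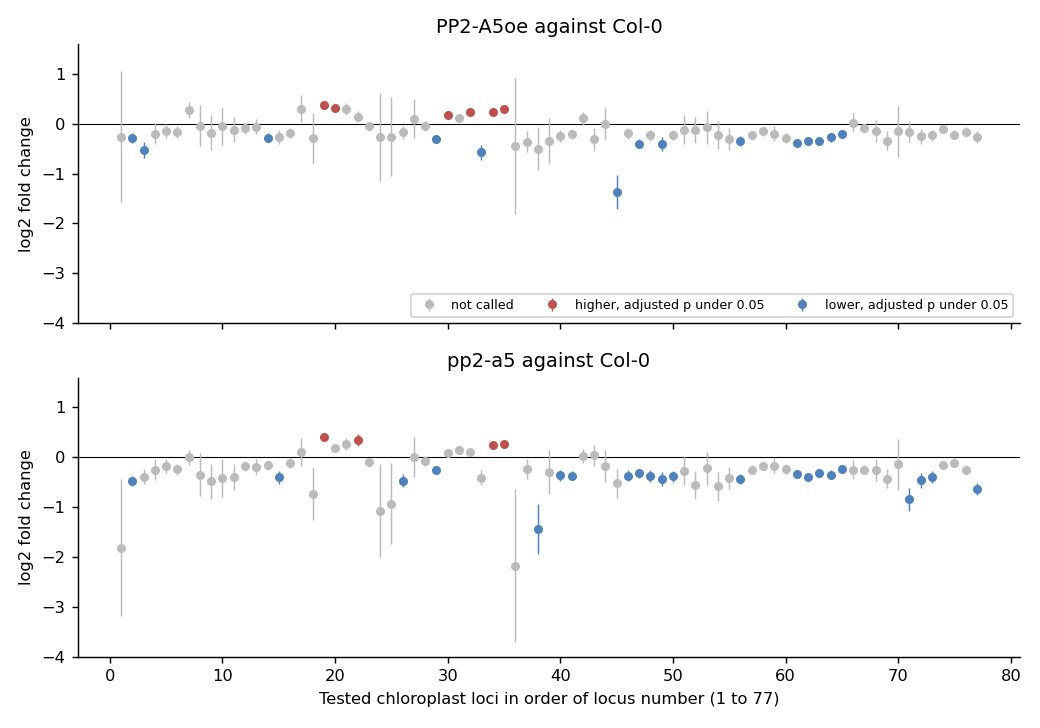
Log2 fold change against Col-0 with 1 SE for the 77 tested chloroplast loci in order of their locus number, PP2-A5oe above and pp2-a5 below; red marks loci called higher, blue loci called lower and grey the rest. The 6 and 4 higher calls lie in the left and middle of the order, and the right part holds lower calls only.

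The higher calls lay in a narrower stretch of the numbering than the lower ones. For the 5 loci described by name, the order of the locus numbers is the order of their positions on the chloroplast sequence. All 6 higher calls in PP2-A5oe had numbers beginning with ATCG002 or ATCG004 (2 and 4 loci), and the 4 higher calls in pp2-a5 began with ATCG002, ATCG003 or ATCG004 (1, 1 and 2 loci). The 8 tested ATCG004 loci also held 2 lower calls in PP2-A5oe and 1 in pp2-a5. Among numbers beginning with ATCG006, all 8 tested loci had negative values in both lines, and 3 in PP2-A5oe and 5 in pp2-a5 fell. All 10 tested ATCG007 loci were negative in both lines and 3 fell in each, and all 3 tested ATCG008 loci fell in both lines. Without Col-0 replicate 3 and PP2-A5oe replicate 2, not all ATCG006 and ATCG007 loci were negative. The highest log2 fold change was then 0.16 in PP2-A5oe and 0.12 in pp2-a5 among the ATCG006 loci. Among the ATCG007 loci it was 0.23 and 0.24. The ATCG007 loci held 20.5% of all chloroplast counts, the ATCG008 loci 11.6% and the ATCG004 loci 42.4%. Neighbouring loci may share a transcript, so their values are not independent of each other. The grouping by number was read from the data and was not tested.

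ATCG00270 had the smallest adjusted p among the loci that rose. It measured 698, 647 and 774 CPM in PP2-A5oe plants, 751, 725 and 682 CPM in pp2-a5, and 567, 553 and 507 CPM in Col-0. Every library of both lines lay above the highest Col-0 library. The log2 fold change was 0.38 ± 0.06 SE in PP2-A5oe (edgeR adjusted p = 2.05e-05) and 0.41 ± 0.06 SE in pp2-a5 (adjusted p = 8.85e-06). Between the lines it was -0.03 ± 0.06 SE (adjusted p = 0.86).

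ATCG00790, the second most abundant chloroplast locus, had the smallest adjusted p among those that fell. It measured 2995, 3025 and 3434 CPM in PP2-A5oe plants, 3083, 3207 and 2863 CPM in pp2-a5, and 4276, 4176 and 3625 CPM in Col-0. The lines lay below Col-0 without overlap, and Col-0 replicate 3 was the lowest of its group. The log2 fold change was -0.35 ± 0.06 SE in PP2-A5oe (edgeR adjusted p = 6.44e-05) and -0.40 ± 0.06 SE in pp2-a5 (adjusted p = 1.34e-05). Its neighbour in the numbering, ATCG00780, measured 291, 292 and 359 CPM in PP2-A5oe plants, 316, 346 and 323 CPM in pp2-a5, and 447, 406 and 384 CPM in Col-0. It fell by 0.40 in PP2-A5oe and by 0.33 in pp2-a5 on the log2 scale (SE 0.07 each, edgeR adjusted p = 9.99e-05 and 0.00104). The calls of ATCG00270, ATCG00480, ATCG00780 and ATCG00790 held in both lines under each of 20 alternatives.

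Among the chloroplast genes described by name, the neighbours ndhJ and ndhK of the NDH complex had log2 fold changes above 0 in both lines. ndhJ measured 1212, 1173 and 1125 CPM in PP2-A5oe plants, 1086, 1052.5 and 1151 CPM in pp2-a5, and 1006.5, 1098 and 1001 CPM in Col-0. It rose in PP2-A5oe (0.18 ± 0.06 SE, edgeR adjusted p = 0.019), with no overlap with Col-0, and did not pass in pp2-a5 (0.08 ± 0.06 SE, adjusted p = 0.35). The ndhJ call was lost without Col-0 replicate 1 or PP2-A5oe replicate 1 or 2 (adjusted p = 0.098, 0.11 and 0.071) under upper-quartile scaling (0.071) and without both Col-0 replicate 3 and PP2-A5oe replicate 2 (0.082). ndhK measured 1196, 1176 and 1315 CPM in PP2-A5oe plants, 1324, 1187 and 1237 CPM in pp2-a5, and 1139, 1153 and 1098 CPM in Col-0. Both lines lay above Col-0 without overlap, but neither difference passed (0.12 and 0.14, SE 0.06 each, edgeR adjusted p = 0.13 and 0.073).

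The genes clpP, cemA and rpl20 had log2 fold changes below 0 in both lines. clpP, the protease gene, measured 580, 660 and 683 CPM in PP2-A5oe plants, 613, 532 and 585 CPM in pp2-a5, and 828, 808 and 615 CPM in Col-0. Col-0 replicate 3 lay close to the pp2-a5 libraries and below 2 of the PP2-A5oe libraries. It fell in pp2-a5 (-0.38 ± 0.11 SE, edgeR adjusted p = 0.026) and did not pass in PP2-A5oe (-0.23 ± 0.11 SE, adjusted p = 0.15). The call was lost without Col-0 replicate 2 or pp2-a5 replicate 2 or 3 (adjusted p = 0.12, 0.051 and 0.067). Without Col-0 replicate 3, the lowest Col-0 library at this locus, and PP2-A5oe replicate 2, clpP was called lower in both lines. The log2 fold changes were then -0.37 ± 0.07 SE in PP2-A5oe and -0.50 ± 0.06 SE in pp2-a5 (edgeR adjusted p = 2.6e-05 and 3.9e-09). Leaving out the lowest Col-0 library widens the difference by construction, so these values are no added support.

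cemA was a low transcript at 20.7, 27.4 and 27.1 CPM in PP2-A5oe plants, 22.2, 23.2 and 23.9 CPM in pp2-a5, and 30.2, 27.4 and 31.2 CPM in Col-0. It fell in pp2-a5 (-0.36 ± 0.11 SE, edgeR adjusted p = 0.020) with no overlap with Col-0. In PP2-A5oe its highest library lay just under the lowest of Col-0, and the difference did not pass (-0.24 ± 0.11 SE, adjusted p = 0.11). Without Col-0 replicate 1 or pp2-a5 replicate 1 or 2 the pp2-a5 call was lost (adjusted p = 0.073, 0.076 and 0.058).

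rpl20, for a protein of the large ribosomal subunit, measured 11.5, 10.3 and 12.8 CPM in PP2-A5oe plants, 12.1, 9.23 and 12.4 CPM in pp2-a5, and 15.5, 15.4 and 14.8 CPM in Col-0. All 6 libraries of the lines lay below all 3 Col-0 libraries, with log2 fold changes of -0.40 in PP2-A5oe and -0.43 in pp2-a5 (SE 0.14 each, edgeR adjusted p = 0.039 and 0.029). DESeq2 did not call it in either line (adjusted p = 0.20 and 0.097), and both calls were lost without Col-0 replicate 1 or 2 (0.068 to 0.098), the PP2-A5oe call without PP2-A5oe replicate 1 or 2 (0.095 and 0.16) or without both PP2-A5oe replicate 2 and Col-0 replicate 3 (0.15), and the pp2-a5 call without pp2-a5 replicate 2 (0.19).

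Per kilobase of coding length these genes spanned a wide range of levels. ndhJ averaged 2453 ± 91.3 CPM per kb in PP2-A5oe, 2299 ± 105 in pp2-a5 and 2170.2 ± 114 in Col-0 (SD, n = 3 each). ndhK averaged 1813 ± 111, 1842 ± 102 and 1667 ± 41.9 CPM per kb in the same order of groups. clpP followed at 1084 ± 91.8, 976 ± 69.4 and 1269 ± 199 CPM per kb. cemA and rpl20 were the lowest and lay close together, at 36.3 ± 5.45, 33.5 ± 1.23 and 42.9 ± 2.84 CPM per kb for cemA and 32.6 ± 3.41, 31.8 ± 4.96 and 43.0 ± 1.06 for rpl20. The genes ndhJ, ndhK and clpP kept this order in all 3 groups, while the SD ranges of cemA and rpl20 overlapped in each group.

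**Figure D4:**
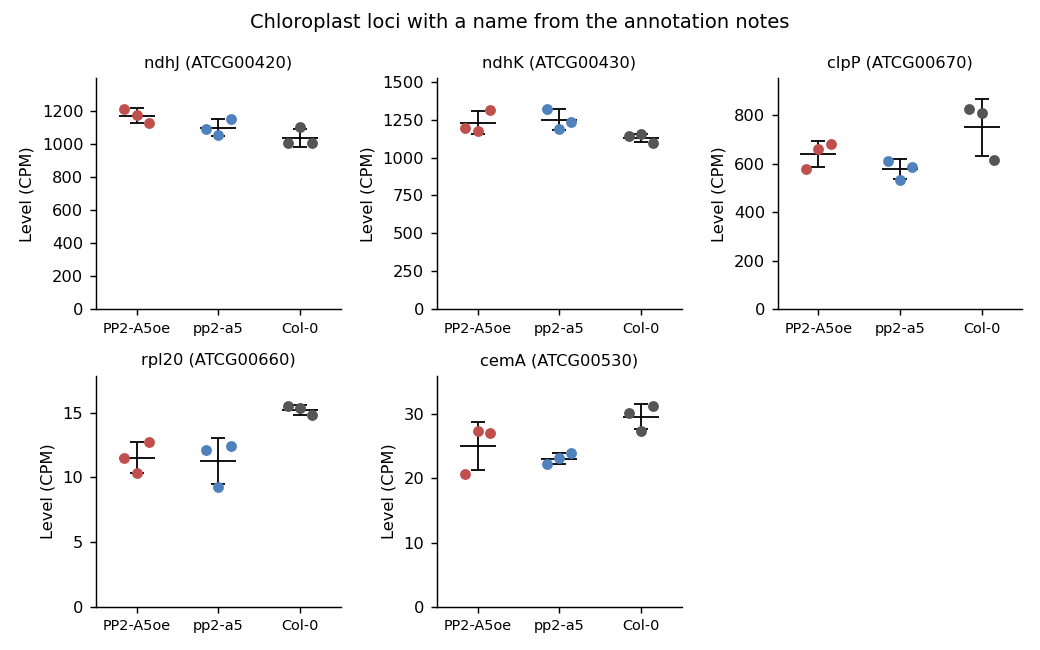
Level in CPM of 5 chloroplast genes named by annotation notes, each axis starting at 0, with 1 point per library, a horizontal bar at the group mean and whiskers of 1 SD. The PP2-A5oe and pp2-a5 libraries lie above all Col-0 libraries for ndhK (1176 to 1324 against 1098 to 1153 CPM) and below all of them for rpl20 (9.23 to 12.8 against 14.8 to 15.5 CPM).

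The mitochondrial transcripts were fewer and mostly at low levels. Of the 64 loci, 23 were tested, with a median level of 9.57 CPM, and the other 41 had 1 to 75 counts in all libraries together. The summed mitochondrial level was 874, 1324 and 741 CPM in PP2-A5oe plants, 847, 869.8 and 878 CPM in pp2-a5, and 779, 756 and 1779 CPM in Col-0. One library stood high in PP2-A5oe (replicate 2) and 1 in Col-0 (replicate 3), and these are the same libraries that stood apart in the chloroplast loci. The log2 difference was -0.10 in PP2-A5oe against Col-0 (exact permutation p = 0.8), -0.23 in pp2-a5 against Col-0 (p = 1.0) and 0.14 in PP2-A5oe against pp2-a5 (p = 0.8). Its sign depended on these libraries. Without Col-0 replicate 3 the first was 0.31 and the second 0.17, and without PP2-A5oe replicate 2 the third was -0.10. Without PP2-A5oe replicate 3 the first was 0.08.

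ATMG00020 and ATMG01390 carried the spread. Together they summed to 437, 877 and 339.9 CPM in PP2-A5oe plants, 402, 424 and 441 CPM in pp2-a5, and 371, 336 and 1291 CPM in Col-0, which was 44.4% to 72.5% of the mitochondrial counts. The other 62 loci summed to 437, 447 and 401 CPM in PP2-A5oe plants, 445, 446 and 437 CPM in pp2-a5, and 409, 421 and 489 CPM in Col-0. Within these 62 loci the groups overlapped and no library stood far apart, although Col-0 replicate 3 was again the highest. ATMG00020 alone was 3.83-fold above the mean of the other Col-0 libraries in Col-0 replicate 3 and 2.22-fold above that of the other PP2-A5oe libraries in PP2-A5oe replicate 2, and ATMG01390 was 3.403-fold and 2.33-fold above.

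**Figure D5:**
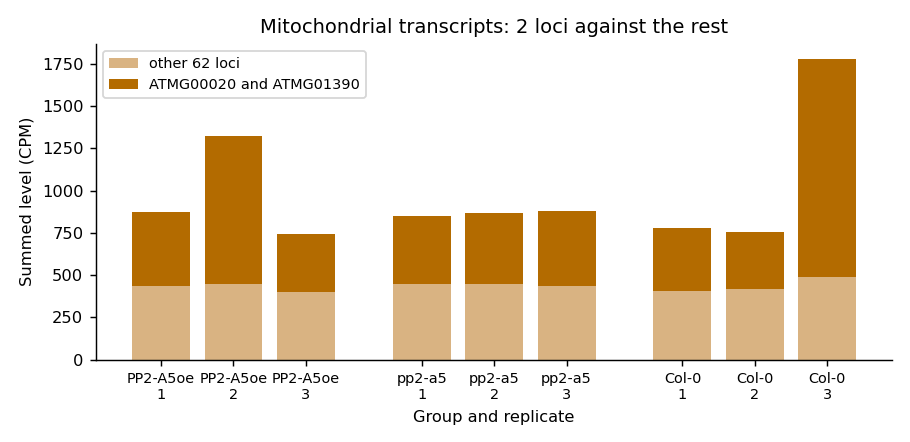
Stacked bars of the summed mitochondrial level in CPM per library, with the other 62 loci below and ATMG00020 and ATMG01390 above, in the order PP2-A5oe, pp2-a5 and Col-0. The lower part stays between 401 and 489 CPM in all 9 libraries, while the upper part reaches 877 CPM in PP2-A5oe replicate 2 and 1291 CPM in Col-0 replicate 3.

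Of the 23 tested mitochondrial loci, 1 was called in PP2-A5oe (4.35%) and none in the other comparisons, against background shares of 25.5% in PP2-A5oe, 20.5% in pp2-a5 and 13.3% between the lines. This was ATMG00090, which measured 103, 94.9 and 93.3 CPM in PP2-A5oe plants, 103, 104 and 103 CPM in pp2-a5, and 105, 113 and 114 CPM in Col-0. The PP2-A5oe libraries lay just below those of Col-0, and it fell by 0.19 on the log2 scale in PP2-A5oe (SE 0.07, edgeR adjusted p = 0.039). This call was lost in 13 of 20 alternatives, including TMM scaling and DESeq2 (adjusted p = 0.067 and 0.15) and leaving out Col-0 replicate 2 or 3 or PP2-A5oe replicate 2 or 3 (0.073 to 0.13). At an unadjusted p under 0.05, 2 mitochondrial loci were found in PP2-A5oe, 1 in pp2-a5 and 0 between the lines, and DESeq2 called none in any of the 3.

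atp9 (ATMG01080), which encodes the ring subunit of the mitochondrial ATP synthase and lies at 270961 to 271185 on the minus strand of the TAIR10.1 mitochondrial sequence, missed the threshold narrowly in both lines. It measured 8.90, 8.42 and 8.62 CPM in PP2-A5oe plants, 8.66, 10.2 and 7.27 CPM in pp2-a5, and 4.68, 5.62 and 7.95 CPM in Col-0. PP2-A5oe lay above Col-0 without overlap, and in pp2-a5 only Col-0 replicate 3 overlapped. The log2 fold changes were 0.52 and 0.53 (SE 0.20 each, edgeR adjusted p = 0.051 and 0.054). Col-0 replicate 3 was the highest Col-0 library at this locus, so that leaving it out widens the difference by construction. Without it and PP2-A5oe replicate 2 the log2 fold changes were 0.77 ± 0.24 SE in PP2-A5oe and 0.76 ± 0.22 SE in pp2-a5 (edgeR adjusted p = 0.013 and 0.0076). nad2 (ATMG01320, matched to part of a complex I subunit gene) held 101.6, 98.4 and 105.5 CPM in PP2-A5oe plants, 110.9, 101 and 104.5 CPM in pp2-a5, and 101, 96.9 and 103 CPM in Col-0, with log2 fold changes of 0.02 and 0.08 (SE 0.07 each, edgeR adjusted p = 0.84 and 0.51).

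Chromosome 2 of the nuclear genome carries a copy of much of the mitochondrial genome, and the genome sequence alone cannot tell apart reads from identical copies. In TAIR10.1, the coding sequences of cox3 (ATMG00730, for a cytochrome c oxidase subunit; 798 bp), atp9 (225 bp) and nad2 (1467 bp) had no mismatch to their chromosome 2 copies. rpl2 (ATMG00560), for a ribosomal protein, differed at 3 of 1050 bases. These bases are shown because they are the places in this gene's coding sequence where the genome sequences of both copies differ. Whether RNA editing alters these bases in the reads was not examined. The substitutions are C520T, C521T and G807A, with the mitochondrial base first and positions counted from 1 at the 5′ end of the first coding part. The capitals in the sequences of the coding strand mark them.
rpl2 in the mitochondrion, 222070 to 222111, minus strand: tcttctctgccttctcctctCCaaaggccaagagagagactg
rpl2 copy, chr2:3411679-3411720, plus strand: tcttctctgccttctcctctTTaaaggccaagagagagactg
rpl2 in the mitochondrion, 221784 to 221824, minus strand: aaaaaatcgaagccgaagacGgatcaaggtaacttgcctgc
rpl2 copy, chr2:3411966-3412006, plus strand: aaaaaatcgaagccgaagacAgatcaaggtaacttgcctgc

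The counts on both copies were of unequal size. ATMG00560 had 129, 114 and 93 counts in PP2-A5oe, 105, 119 and 122 counts in pp2-a5, and 117, 123 and 123 counts in Col-0, while the chromosome 2 locus AT2G07715 had 20, 16 and 16 counts, 21, 10 and 29 counts, and 16, 14 and 12 counts in the same groups. atp9 had 45 to 61 counts in the libraries of the lines and 29 to 43 in Col-0, while its identical copy AT2G07671 had 0 to 2 counts in any library. For cox3 both were low, with 12 to 22 counts in the lines and 4 to 24 in Col-0 on the mitochondrial locus and 3 to 12 and 4 to 16 counts on AT2G07687. The sources used here do not state how reads with several matches were treated. The 76 loci of this stretch of chromosome 2 summed to 166 to 174 CPM in PP2-A5oe plants, 179.9 to 181 CPM in pp2-a5 and 148 to 168 CPM in Col-0. In this sum the pp2-a5 libraries lay above all Col-0 libraries. None of the 25 that were tested was called in any of the 3 comparisons, where 25.5%, 20.5% and 13.3% of all tested loci were. Without Col-0 replicate 3, 1 was called in pp2-a5, where 3057 of all 14174 tested loci were. In each line 17 of the 25 had positive values against Col-0 and 8 negative ones (median log2 fold change 0.15 in PP2-A5oe and 0.19 in pp2-a5).

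Nuclear genes that serve organelle transcription and RNA processing were measured in the same libraries. Among 5 tested sigma factors, 1 rose in PP2-A5oe and 2 in pp2-a5, where 13.8% and 14.1% of all tested loci rose, and none fell. SIG5 rose in both lines. It averaged 583 ± 5.26 CPM in PP2-A5oe, against 427 ± 19.2 CPM in pp2-a5 and 282 ± 19.2 CPM in Col-0 (SD, n = 3 each). The log2 fold change was 1.05 ± 0.06 SE in PP2-A5oe (edgeR adjusted p = 1.7e-15) and 0.60 ± 0.06 SE in pp2-a5 (adjusted p = 2.3e-09), and PP2-A5oe was also above pp2-a5 (0.45 ± 0.06 SE, adjusted p = 7.8e-07). SIG4 rose in pp2-a5 (0.35 ± 0.09 SE, adjusted p = 0.0037), where it averaged 52.7 ± 3.68 CPM, against 41.2 ± 3.84 CPM in Col-0. SIG2, SIG3 and SIG6 were not called in any comparison.

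Of 11 tested genes for proteins associated with the plastid-encoded polymerase, 8 fell in PP2-A5oe and none rose, with a median of -0.42, where 11.7% of all tested loci fell. In pp2-a5, 2 fell, with a median of -0.21. These were 18.2% of the list, where 6.4% of all tested loci fell and 20.5% were called in either direction. The pp2-a5 count was 5 with TMM scaling, 6 without Col-0 replicate 3, 4 without PP2-A5oe replicate 3 and 1 without pp2-a5 replicate 1. FSD3, an iron superoxide dismutase of this complex, averaged 34.4 ± 5.34 CPM in PP2-A5oe plants, 41.6 ± 3.90 CPM in pp2-a5 and 52.4 ± 1.77 CPM in Col-0 (SD, n = 3 each), with log2 fold changes of -0.61 and -0.33 (edgeR adjusted p = 1.1e-05 and 0.011). PTAC14 fell by 0.44 in PP2-A5oe and by 0.36 in pp2-a5 (adjusted p = 0.00052 and 0.0038), and PTAC12 fell by 0.52 in PP2-A5oe (adjusted p = 2.8e-05) and was also lower there than in pp2-a5 (-0.29, adjusted p = 0.027). In the direct comparison, 2 of the 11 (18.2%) were lower in PP2-A5oe, where 7.6% of all tested loci were. The count was 5 without Col-0 replicate 3 and 4 without PP2-A5oe replicate 3 or pp2-a5 replicate 1. It was 0 without PP2-A5oe replicate 1 or 2 or pp2-a5 replicate 2 or 3, and 0 with DESeq2.

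Of 6 tested MORF genes, for proteins of the organelle RNA editing machinery, 4 fell and 1 rose in PP2-A5oe and 3 fell in pp2-a5. Among all tested loci, 11.7% fell and 13.8% rose in PP2-A5oe and 6.4% fell in pp2-a5. MORF2 fell by 0.41 in PP2-A5oe and by 0.24 in pp2-a5 (edgeR adjusted p = 4.4e-05 and 0.014), and MORF9 fell by 0.27 in both (adjusted p = 0.00092 and 0.00078). MORF4 rose in PP2-A5oe (0.35 ± 0.12 SE, edgeR adjusted p = 0.036). The 5 MORF calls in PP2-A5oe were 3, all lower, with DESeq2 and without Col-0 replicate 3, PP2-A5oe replicate 1 or PP2-A5oe replicate 2. Of 9 tested genes of RNA decay and stability, 3 fell in PP2-A5oe, among them CP31B (-0.29, adjusted p = 0.0026), an RNA-binding protein that stabilises chloroplast transcripts, and 1 fell in pp2-a5 (RNR1, a ribonuclease, -0.24, adjusted p = 0.045). All of these calls were lower ones. Their shares, 33.3% in PP2-A5oe and 11.1% in pp2-a5, stood beside 11.7% and 6.4% of all tested loci that fell. In either direction, 25.5% and 20.5% of all tested loci were called. The shares of the list rest on few calls. The PP2-A5oe count was 1 without Col-0 replicate 1 or 2 or PP2-A5oe replicate 1. The pp2-a5 count was 4 without Col-0 replicate 3 and 0 without Col-0 replicate 1, PP2-A5oe replicate 1 or 2, or pp2-a5 replicate 2. The 1 tested phage-type polymerase gene was not called. Of 2 tested genes for the Rubisco small subunit, which pairs with a chloroplast-encoded large subunit, RBCS1B fell in pp2-a5 (-0.25, adjusted p = 0.00049) and was higher in PP2-A5oe than in pp2-a5 (0.15, adjusted p = 0.046). Members of these lists were chosen with earlier results of the same data known, so their counts are a description.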

How the data were processed

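RNA sequencing counts of 9 libraries were analysed. Per the labels' protocols, total RNA was purified with DNase treatment, enriched on oligo(dT) beads, fragmented and copied with random hexamers. The deposited values are raw counts per gene made by the authors with TAIR10 as the build, per the submitters' processing notes; the aligner, the counting tool and its treatment of multiply mapped reads are not given here. No column lacked a sample (0 left out). The labels call the replicates biological but do not say whether they were grown separately, so p-values measure the spread between these samples.

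Rows of 1 locus were summed (22449 entries to 22155 loci, 294 with 2 entries). CPM used total counts. edgeR 4.0.16 (R 4.3.3, limma 3.58.1) fitted 1 mean per group over all 9 libraries by quasi-likelihood, after filterByExpr (minimum count 10, minimum total 15), with total counts as library sizes and Benjamini-Hochberg adjustment over 13975 loci, called at an adjusted p under 0.05. The tested loci held 99.76% of the counts, and the biological coefficient of variation was 6.91%. Sums were compared by exact two-sided permutation tests on log2 CPM (SciPy 1.17.1). The fit was tested on simulated data with the same spread at every locus and no library that stood apart. That test therefore does not cover organelle loci at which a library stood apart. Alternatives were TMM, RLE and upper-quartile scaling, DESeq2 1.42.0, other filters and thresholds, a replicate block, and leaving out libraries.

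Names of organelle loci came from annotation notes of nuclear relatives in RefSeq's TAIR10.1, matched by BLAST 2.17.0. Its coordinates and sequences may differ from the counting build. Loci were to be named by level, by adjusted p and by functional class; without names for most of them the classes could not be applied, and unnamed identifiers were limited to a pair that rose, a pair that fell, the only mitochondrial call and 4 loci chosen after their values in the libraries that stand apart were seen. Members, lists and tests were chosen with earlier results of these data known. Results for 1 item are not reported here.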

Additional observations from a re-analysis of the deposited data

How the results depend on the processing

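The summed mitochondrial level changed sign with the libraries used. With 1 library left out, its log2 difference ran from -0.34 to 0.31 in PP2-A5oe against Col-0 (0.08 without PP2-A5oe replicate 3), from -0.45 to 0.17 in pp2-a5 against Col-0 and from -0.10 to 0.31 between the lines. Without both PP2-A5oe replicate 2 and Col-0 replicate 3 these were 0.068, 0.17 and -0.10. No chloroplast sum changed sign. PP2-A5oe replicates 2 and 3 (27192 and 27575 CPM) lay within the Col-0 range of 27161 to 27773 CPM, however. The small difference of PP2-A5oe from Col-0 in this sum thus rested largely on PP2-A5oe replicate 1 (25386 CPM). Chloroplast calls in PP2-A5oe numbered 17 with DESeq2, 12 at an adjusted p under 0.01 and 12 to 25 with 1 library left out. Over all tested loci, calls in PP2-A5oe then numbered 2505 of 15281, 2402 of 13975 and 2860 to 3687, against 3567 as reported above. In pp2-a5 the chloroplast calls numbered 25, 15 and 18 to 30 under the same alternatives. Those over all tested loci numbered 1975 of 14852, 1876 of 13975 and 2235 to 3057, against 2864. Between the lines, 1 chloroplast locus was called with TMM, RLE or upper-quartile scaling, with only the groups compared, and without both libraries named above, 2 without a filter, and 0 to 5 with 1 library left out. With 1 library left out, 1382 to 2303 of all tested loci were called between the lines. The mitochondrial count in PP2-A5oe was 0 with DESeq2, without a filter, with only the groups compared and at an adjusted p under 0.01, and 0 to 3 with 1 library left out; with TMM or RLE scaling it was 1 but shared 0 loci with the reported call. In pp2-a5 it was 3 without both libraries and 0 to 2 with 1 left out. Both libraries were named for their high mitochondrial share, so leaving out Col-0 replicate 3 lowers the Col-0 mean by construction, and these gained calls are no support. Replicate numbers did not pair the samples (correlations of same-numbered deviations -0.21 to 0.08), and with a replicate block the chloroplast calls were 22 in PP2-A5oe, 26 in pp2-a5 and 1 between the lines, and the mitochondrial call in PP2-A5oe was lost (0). The causes were not tested. Depth limited the mitochondrial loci most, of which 41 of 64 had too few counts for a test.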
